A study of Mus musculus with 18 samples.

Results

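The comparison set the left ventricle of mid-pregnant mice directly against that of running mice. Its members were the 3 arrays of the MP group and the 6 exercise arrays, 3 of the 7EX group and 3 of the 21EX group taken as one group, so 9 of the 18 arrays of the series entered it and no sedentary array did. All animals were wild type female C57Bl/6 mice of 3 to 4 months. MP mice were at day 11 of gestation, and 7EX and 21EX mice had voluntary access to a running wheel for 7 or 21 days. NP/Sed, the sedentary virgin group at diestrus, is shown for orientation. Its arrays, and those of the late pregnant (LP) and postpartum (0PP) groups, entered the tests only through the estimate of spread. Each array was hybridized with equal amounts of RNA pooled from 2 to 3 hearts, so n counts pools and the p-values measure the spread between pools. The sources used here give neither the hour of tissue collection nor the estrous stage of the running mice.

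Pregnancy and endurance running both enlarge the heart reversibly, and both are called physiological hypertrophy. They reach the heart by different routes. Pregnancy brings volume load together with high progesterone, estrogen and glucocorticoid levels, which act through nuclear receptors that bind DNA once they hold their ligand. Running is intermittent work under sympathetic drive, in an animal without a placenta.

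The values are log2 signals, on which a difference of 1 is a doubling, and differences are MP minus the mean of 7EX and 21EX with the standard error (SE) of the fit. A probe set passed at a Benjamini-Hochberg adjusted p under 0.05 in limma, and a gene was called if any of its probe sets passed with an absolute difference of 0.807 or more, which is a 75% change. Of 18194 genes, 41 were called higher in MP (0.225%) and 7 were called lower (0.0385%), 48 in all (0.264%). Without the limit on size, 162 genes passed as higher (0.89%) and 185 as lower (1.02%), together 1.91% of the genes. In each of the 48 called genes, at the probe set shown, the 3 MP arrays lay outside the range of the 6 exercise arrays, which was also so for 4.74% of all genes with MP above and 7.43% with MP below (3.35% and 5.56% at the probe set of highest mean). The median difference over all genes, each at its probe set of highest mean, was -0.0028.

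**Figure D1:**
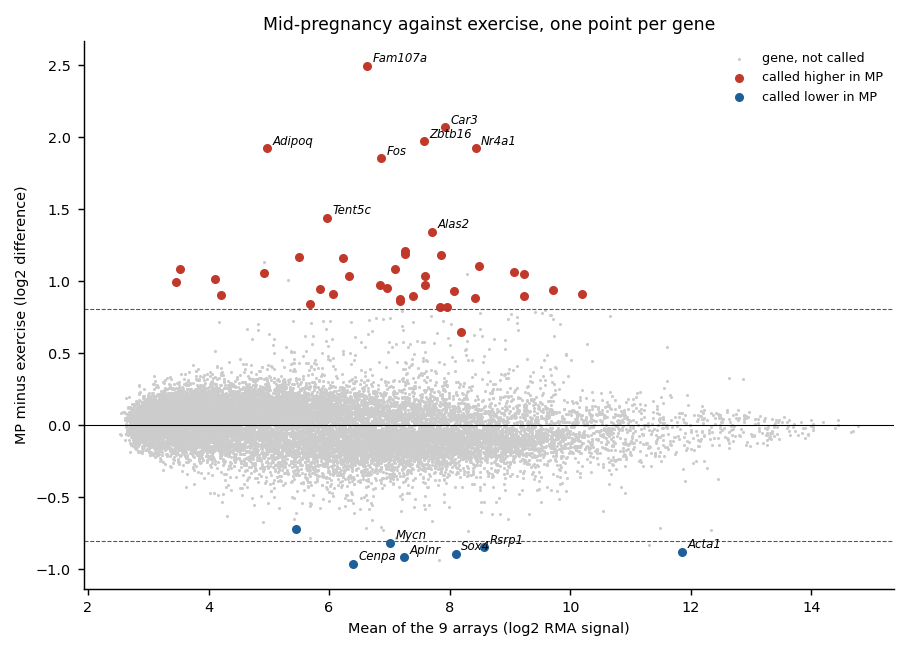
MP minus exercise on the log2 scale against the mean signal of the 9 arrays, 1 point per gene at the probe set with the smallest p. Dashed lines mark the limit of 0.807; the 41 genes called higher are red and the 7 called lower are blue, and Shld1 and Vgll3 lie inside the lines because another of their probe sets passed the limit.

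The array controls separated the groups as well. The 3′ minus 5′ signal of the beta-actin control probe sets was 1.32 to 1.35 in MP and 1.05 to 1.22 in exercise, and that of Gapdh was 0.02 to 0.06 against -0.07 to -0.004 (exact two-sided permutation p of 0.0119 each, the smallest that 84 splits allow). Its part in the results was not tested beyond 1 fit with the mean of both as a covariate. The slope of that covariate came from spread within groups, which was widest in NP/Sed (0.52, 0.73 and 0.59). The mean was 0.67 to 0.71 in MP, 0.51 to 0.52 in 7EX and 0.56 to 0.60 in 21EX. The adjustment therefore rested mostly on arrays outside the comparison. In that fit the differences of the 48 called genes were 0.93 times those without it (median) and their SE 1.56 times as large, 6 of the 48 still passed (Fam107a, Alas2, Rhobtb1, Sox17, Chd6 and Ppargc1a), none changed sign, and no gene list had more than 1 member that passed. MP-3 carried most weight among the arrays, since 30 of the 48 passed without it and 21 genes were then called higher in place of 41. The cardiomyocyte markers, which mark heart muscle but cannot check the part of the heart, had a mean signal of 13.55 to 13.56 in MP. In exercise it was 13.57 to 13.61, so all MP arrays lay slightly below all exercise arrays. Of the 12 markers 0 passed, and 1 was higher in MP at the probe set of highest mean.

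Genes known to be switched on by the glucocorticoid and progesterone receptors had the largest share of members past the test of the 44 lists. Of 30 listed targets 16 were higher in MP (53.3%, against 0.89% of all genes) and none was lower, 8 of the 16 were past the limit on size, and the median over the list was 0.53. The list was assembled with earlier results of these arrays known, and 16 of its members also stand in another list. Without MP-3, 7 of the 30 were higher, and without MP-1, 13 were higher and 1 was lower.

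Zbtb16, which encodes the zinc finger transcription factor PLZF, read 8.86, 8.77 and 9.01 in the 3 MP arrays, 6.80, 6.44 and 7.00 in 7EX and 6.77, 7.41 and 7.03 in 21EX. No MP array came near the exercise range, and the difference was 1.97 ± 0.22, or 3.92-fold (adjusted p = 0.000186). Fkbp5, a co-chaperone that lowers the affinity of the glucocorticoid receptor for its hormone, read 7.88, 7.99 and 8.30 in MP against 6.83, 7.09 and 6.96 in 7EX and 6.59, 6.90 and 6.84 in 21EX. Its difference was 1.19 ± 0.19 (adjusted p = 0.00332), with the MP arrays all above the exercise arrays, though 1 of its 3 probe sets passed. Sgk1, a kinase that regulates sodium channels, read 10.50, 10.02 and 10.53 against 9.10, 9.49 and 9.45 in 7EX and 9.39, 9.65 and 9.37 in 21EX, a difference of 0.94 ± 0.16. Here too the groups did not overlap.

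The other targets past the limit on size were Map3k6, a stress-activated kinase, at 1.16 ± 0.14, Slc10a6, a transporter of sulfated steroids, at 1.17 ± 0.24, the cell cycle inhibitor Cdkn1a at 1.05 ± 0.22, the transcription factor Cebpb at 0.90 ± 0.15, and the clock gene Per1, described below with its family. Tsc22d3, which encodes the anti-inflammatory protein GILZ, rose by 0.79, the NF-kappa-B inhibitor Nfkbia by 0.75, and the metallothionein Mt1 by 0.71. Smaller rises were seen in the transcription factors Klf9 (0.54), Hif3a (0.54), Klf15 (0.44), Cebpd (0.37) and Foxo3 (0.35). Hif3a passed at 1 of 6 probe sets, with 0.07 at that of highest mean, and Foxo3 no longer passed under 13 alternatives, among them the removal of MP-1 or MP-2. Mt1 and Cebpd each passed at 1 of 2 probe sets. At that of highest mean they stood at 0.49 and 0.72 without passing (adjusted p = 0.169 and 0.133). Mt2 had a difference of 0.74 ± 0.31 but did not pass (adjusted p = 0.333), nor did Ptgds at -0.83 ± 0.21 (adjusted p = 0.0663). The receptors themselves did not pass: 0 of 18 steroid, prolactin and thyroid hormone receptor genes did, and the glucocorticoid receptor gene Nr3c1 stood at -0.50 ± 0.23 (adjusted p = 0.365).

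Fam107a, an actin-associated protein known to respond to stress and glucocorticoids, had the largest difference of the 48 called genes. Its signal was 8.24, 8.05 and 8.59 in MP, 5.61, 5.54 and 5.81 in 7EX and 5.63, 6.05 and 6.12 in 21EX. The lowest MP array was far above the highest running array, the difference was 2.50 ± 0.21, or 5.64-fold (adjusted p = 1.11e-05), and all 3 of its probe sets passed.

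**Figure D2:**
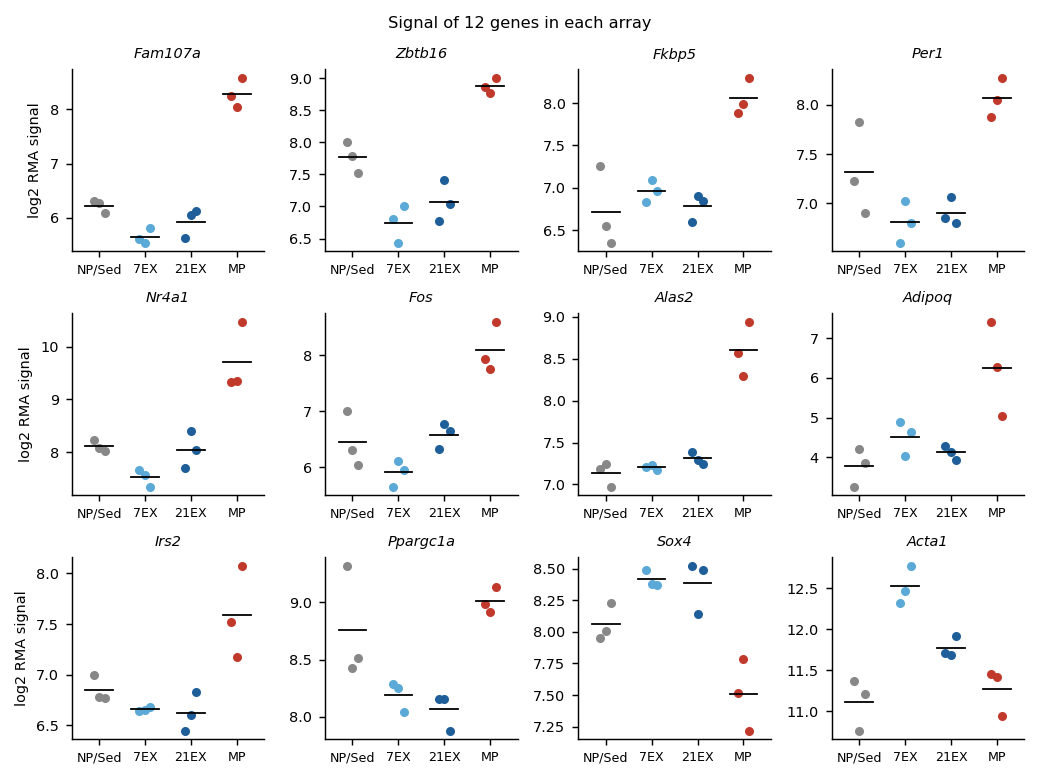
Log2 RMA signal of 12 genes in each array of NP/Sed, 7EX, 21EX and MP, with points for pools and bars for the mean of 3; each gene has its own axis, which does not start at 0. In 10 of the genes the MP points lie above all 6 exercise points, and in Sox4 and Acta1 they lie below.

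Promoters of called genes are shown because members of this list moved together, and they come from RefSeq (build GRCm38.p6), as windows from 250 bases before to 50 after a start site. The table had windows for 31 of the 41 genes called higher and 6 of the 7 called lower. The full palindrome bound by the glucocorticoid and progesterone receptors was searched on both strands, and so was the single 6-base site TGTTCT, which overlaps the palindrome. The full form lay in 0.0487% of all 32851 windows, in 0.0278% of the windows of genes tested here, and in windows of 2 of the 26 target genes with one, Sgk1 and Trim63, a muscle ubiquitin ligase whose own difference was -0.24 ± 0.06 (adjusted p = 0.0831). In 1 of the 6 Sgk1 windows it starts 189 bases before the start site, in capitals:
Sgk1, chr10:21993640-21993939, plus strand: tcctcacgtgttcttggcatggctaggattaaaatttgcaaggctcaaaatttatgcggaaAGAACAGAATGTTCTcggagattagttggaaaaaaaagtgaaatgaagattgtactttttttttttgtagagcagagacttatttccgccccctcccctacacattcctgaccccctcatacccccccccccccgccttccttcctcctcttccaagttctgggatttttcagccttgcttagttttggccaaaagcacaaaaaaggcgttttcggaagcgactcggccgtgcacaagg
The single site was found in windows of 5 of the 26 target genes (19.2%), of 16.9% of the tested genes and of 21.3% of all genes with a window. Fam107a, on no target list here, holds it 158 and 110 bases before the start, both in capitals:
Fam107a, chr14:8309730-8310029, minus strand: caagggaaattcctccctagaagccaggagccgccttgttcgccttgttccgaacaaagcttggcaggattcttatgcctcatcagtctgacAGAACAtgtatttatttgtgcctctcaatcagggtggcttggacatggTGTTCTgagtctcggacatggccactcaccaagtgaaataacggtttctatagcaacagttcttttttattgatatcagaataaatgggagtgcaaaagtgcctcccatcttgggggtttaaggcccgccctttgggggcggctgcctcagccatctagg
A match is a stretch of letters and was not tested for binding.

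Immediate early genes, which cells transcribe within minutes of a stimulus, were higher in MP in 7 of 26 cases (26.9%), with none lower and a list median of 0.28. At the probe set of highest mean 25 of the 26 were above exercise, against 8903 of all 18194 genes. Nr4a1, an orphan nuclear receptor, read 9.32, 9.34 and 10.47 in MP, 7.67, 7.56 and 7.35 in 7EX and 7.69, 8.41 and 8.05 in 21EX. The groups did not overlap, with MP-3 the highest array, and the difference was 1.92 ± 0.28, or 3.79-fold (adjusted p = 0.00137). Fos, a subunit of the AP-1 transcription factor, read 7.94, 7.76 and 8.61 in MP against 5.66, 6.12 and 5.96 in 7EX and 6.33, 6.77 and 6.64 in 21EX, a difference of 1.85 ± 0.36. MP-3 was again the highest array and 7EX the lowest group. The mRNA-destabilizing protein Zfp36 rose by 0.82 ± 0.19, the transcription factors Klf4, Atf3 and Fosl2 by 0.77, 0.72 and 0.66, and the antiproliferative gene Btg2 by 0.78. The Zfp36 call was lost under 8 alternatives and that of Btg2 under 11. Egr1 stood at 0.76 ± 0.34 without passing (adjusted p = 0.373), and Egr3 at -0.49 ± 0.24. Csrnp1, Sik1, Noct and Rasgef1b, also known as rapidly induced genes but on no list here, were called at 0.97, 0.91, 1.06 and 0.84. They were picked from the called genes, so they add nothing to the list count. The list count depended on single pools, with 2 of 26 past the test without MP-1, 2 without MP-3 and 8 without MP-2.

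In the circadian clock 2 of 17 genes were higher (11.8%) and none was lower. Per1, a repressor of the clock's own activators, read 7.88, 8.04 and 8.28 in MP, 6.60, 7.03 and 6.80 in 7EX and 6.85, 7.07 and 6.80 in 21EX. All MP arrays exceeded all exercise arrays, and the difference was 1.21 ± 0.16 (adjusted p = 0.000728). Per2, its paralog, stood at 4.39, 5.55 and 4.49 against 3.78, 3.98 and 3.99 in 7EX and 3.69, 3.86 and 4.13 in 21EX, with MP-2 well above the others, and differed by 0.91 ± 0.21 at 1 of 3 probe sets. Its probe set of highest mean gave 0.23 ± 0.14 and did not pass, and the call was lost under 15 alternatives. The clock output genes Dbp (1.05 ± 0.45), Hlf (0.65 ± 0.17) and Ciart (0.62 ± 0.20) were above exercise without passing, and Npas2 (-0.45 ± 0.22) and Clock (-0.20 ± 0.09), from the activating arm, were below it without passing. Arntl, the partner of Clock, was not among the 17 counted, was named after its value was seen, and stood at -0.94 ± 0.24 (adjusted p = 0.0729). Noct, a clock-controlled gene picked from the called genes, read 9.66, 9.63 and 10.05 in MP against 8.66, 8.63 and 8.78 in 7EX and 8.72, 8.83 and 8.68 in 21EX. Its groups were well apart (adjusted p = 0.000186). The hour of collection cannot be told apart from the groups here.

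The clock activators bind the E-box, searched as CACGTG, which reads the same on both strands. It lay in windows of 6 of the 31 genes called higher (19.4%), namely Per1, Fkbp5, Irs2, Sgk1, Rhobtb1 and Coq10b, of 10.3% of the tested genes and of 8.09% of all genes with a window. Counted over windows, where genes with several starts weigh more, the shares were 11.1%, 8.74% and 7.15%. The promoters of Per1 and Fkbp5 show it in capitals, 166 and 169 bases before the start:
Per1, chr11:69098699-69098998, plus strand: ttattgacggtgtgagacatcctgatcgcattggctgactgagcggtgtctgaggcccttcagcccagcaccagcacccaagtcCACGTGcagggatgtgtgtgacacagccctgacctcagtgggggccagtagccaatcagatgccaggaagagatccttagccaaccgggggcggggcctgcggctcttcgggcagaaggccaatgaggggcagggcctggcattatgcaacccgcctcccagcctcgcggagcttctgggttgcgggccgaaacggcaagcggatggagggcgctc
Fkbp5, chr17:28486100-28486399, minus strand: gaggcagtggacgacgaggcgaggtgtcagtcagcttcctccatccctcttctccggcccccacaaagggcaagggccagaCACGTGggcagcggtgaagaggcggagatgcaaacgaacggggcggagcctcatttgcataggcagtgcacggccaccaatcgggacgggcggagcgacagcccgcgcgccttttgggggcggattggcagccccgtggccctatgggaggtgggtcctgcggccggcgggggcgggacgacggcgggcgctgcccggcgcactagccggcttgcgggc
The cyclic AMP response element TGACGTCA, a palindrome, was in windows of 3 of 21 immediate early genes (14.3%). It was also in those of 1 called gene (Ell2), of 2.94% of the tested genes and of 2.03% of all genes. For the core of the serum response element only a fixed string of letters was searched, without variants. That string lay in windows of 4 of 14368 tested genes (0.0278%) and of 0.0777% of all genes. It was in none of the called or immediate early genes. A string this rare cannot show whether those genes lack the element.

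Genes of red blood cells were higher in MP in 6 of 19 cases (31.6%), with none lower, and 4 passed without MP-3. Alas2, the rate-limiting enzyme of heme synthesis in erythroid cells, read 8.56, 8.29 and 8.94 in MP, 7.21, 7.24 and 7.17 in 7EX and 7.39, 7.30 and 7.24 in 21EX. The exercise arrays lay close together and every MP array was well above them, a difference of 1.34 ± 0.11 (adjusted p = 1.11e-05). Tent5c, a poly(A) polymerase abundant in erythroid cells, differed by 1.44 ± 0.15, the red cell anion exchanger Slc4a1 by 1.08 ± 0.21 and the beta globin Hbb-b2, a member of a family whose near-identical copies share probes, by 1.08 ± 0.20. Slc4a1 was barely above its exercise range in MP-2, at 4.59, 3.39 and 4.76 in the 3 MP arrays against a highest exercise value of 3.31. Bpgm, which makes the phosphate metabolite that lowers the oxygen affinity of hemoglobin, rose by 0.58 and the mitochondrial iron importer Slc25a37 by 0.36. Over the whole marker list the mean signal was 6.26 to 6.48 in MP, 6.00 to 6.06 in exercise and 5.98 to 6.00 in NP/Sed. The erythroid transcription factor Gata1 (0.14 ± 0.07) and the alpha globin Hba-a2 (-0.07 ± 0.09) did not pass. Hearts were rinsed of blood before freezing, and in bulk tissue more cells of a type and more RNA per cell cannot be told apart.

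GATA1 binds sites with the core AGATAA, searched on both strands. It lay in windows of 6 of 14 erythroid markers (42.9%), of 9.53% of the tested genes and of 12.7% of all genes with a window. The Alas2 promoter is shown with its site, on the reverse strand, in capitals 86 bases before the start:
Alas2, chrX:150547167-150547466, plus strand: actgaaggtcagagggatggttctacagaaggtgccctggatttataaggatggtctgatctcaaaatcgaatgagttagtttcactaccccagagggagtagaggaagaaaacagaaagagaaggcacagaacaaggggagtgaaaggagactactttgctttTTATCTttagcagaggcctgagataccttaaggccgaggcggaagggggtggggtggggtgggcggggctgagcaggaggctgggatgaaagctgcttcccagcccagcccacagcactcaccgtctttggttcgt

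Fat cell genes were uneven between the MP pools. Adipoq, the fat cell hormone adiponectin, read 7.42, 6.27 and 5.05 in MP, 4.89, 4.03 and 4.65 in 7EX and 4.30, 4.15 and 3.94 in 21EX. The lowest MP array was just above the highest exercise array, and the difference was 1.92 ± 0.37 (adjusted p = 0.0136). Car3, a carbonic anhydrase abundant in fat and slow muscle, was likewise highest in MP-1 and lowest in MP-3, at 10.22, 9.26 and 8.44, against 7.74, 7.32 and 7.65 in 7EX and 7.64, 6.84 and 6.22 in 21EX, a difference of 2.07 ± 0.39. Plin4, a coat protein of lipid droplets, rose by 0.39 ± 0.08. These were 3 of 20 fat cell markers (15%), with 0 of 20 past the test without MP-1. Fabp4 (0.60 ± 0.19), Scd1 (0.56 ± 0.17) and Fasn (0.09 ± 0.09) did not pass, Lep stood at -0.07 ± 0.08, and the list's mean signal was 7.21 to 7.50 in MP and 6.95 to 7.03 in exercise.

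Macrophage markers rose in 3 of 20 cases (15%). Cd163, a scavenger receptor for hemoglobin, rose by 0.58 ± 0.10, Lyve1, a hyaluronan receptor of resident macrophages and lymphatic vessels, by 0.67 ± 0.12 and the complement gene C1qb by 0.45 ± 0.11. The C1qb call was lost under 19 alternatives, among them median centring, the replicate block and the removal of any single exercise array, and its probe set of highest mean gave 0.21 (adjusted p = 0.522). Cd163 read 7.89, 7.88 and 7.75 in MP against 7.03, 7.38 and 7.31 in 7EX and 7.11, 7.38 and 7.32 in 21EX, without overlap. The mean signal of the list was 7.38 to 7.56 in MP and 7.25 to 7.38 in exercise, so these ranges met, and without MP-3 only 1 marker passed. None of 12 neutrophil, 13 lymphocyte, 14 skeletal muscle, 9 atrial, 8 mesothelial and 7 nerve markers passed. Many of them were dim, with a mean signal under 5 in 5, 9, 10, 1, 6 and 1 of these markers in the same order. The part of these cell types in the gene differences was not tested.

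**Figure D3:**
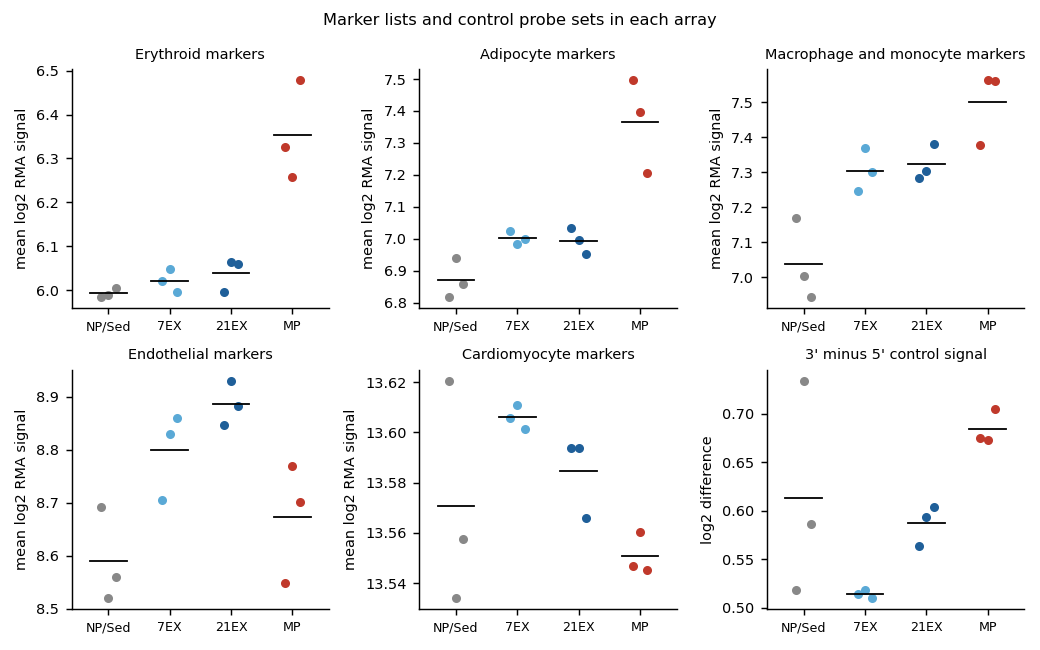
Mean log2 RMA signal of 5 marker lists and the mean 3′ minus 5′ log2 difference of the Gapdh and beta-actin control probe sets, in each array of 4 groups, with bars at the mean of 3 pools; axes do not start at 0. Erythroid and fat cell lists lie higher in all 3 MP pools than in all 6 exercise pools, the cardiomyocyte list lies between 13.53 and 13.62 throughout, and the control difference is higher in MP than in exercise, with NP/Sed spread across both.

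Metabolic programs differed at single genes. Ppargc1a, which encodes PGC-1alpha, the coactivator that drives mitochondrial and fatty acid oxidation genes, read 8.99, 8.92 and 9.13 in MP, 8.29, 8.25 and 8.04 in 7EX and 8.16, 8.16 and 7.88 in 21EX. All MP arrays were above all exercise arrays, and the difference was 0.88 ± 0.14 (adjusted p = 0.00311), with 3 of 5 probe sets past the test and all 5 positive. No other of the 32 genes of fatty acid uptake and oxidation passed (list median 0.04). None of 25 respiratory chain genes (median -0.02), 25 genes of glucose transport, glycolysis and glycogen (-0.04) or 6 ketone body enzymes (-0.05) passed. Pdk4 stood at 0.30 ± 0.26, Ppara at 0.25 ± 0.09, the glucose transporters Slc2a1 at -0.37 ± 0.11 and Slc2a4 at -0.29 ± 0.10, and Bdh1 at -0.47 ± 0.16.

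Of 28 genes of insulin, IGF, PI3K, Akt and mTOR signaling 3 rose (10.7%) and none fell. Without MP-1 2 of the 28 passed, without MP-2 also 2, and without MP-3 only 1. Irs2, the adaptor that passes the insulin and IGF-1 receptor signal to PI3K, read 7.52, 7.17 and 8.08 in MP, 6.64, 6.65 and 6.68 in 7EX and 6.45, 6.60 and 6.82 in 21EX. MP-3 was highest and MP-2 lowest of the pregnant pools, and none reached down to the exercise range (difference 0.95 ± 0.16, adjusted p = 0.00488). Foxo3, a transcription factor restrained by Akt, rose by 0.35 and the IGF-binding protein Igfbp3 by 0.44, both with overlap between the groups. Irs2 no longer passed without MP-3. Igfbp3 was lost under 8 alternatives, among them both fits of the 9 arrays. Pik3r1 (0.50 ± 0.13), Pik3ip1 (-0.52 ± 0.15) and Igf1r (-0.30 ± 0.10) did not pass.

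Vessel genes moved both ways. Of 15 endothelial markers 1 was higher and 2 were lower (6.67% and 13.3%). Aplnr, the receptor for apelin, read 6.37, 7.10 and 6.44 in MP, 7.34, 7.48 and 7.60 in 7EX and 7.54, 7.67 and 7.68 in 21EX. MP-2 lay nearest the exercise arrays without reaching them, and the difference was -0.92 ± 0.14 (adjusted p = 0.00211). The tight junction gene Cldn5 fell by 0.74 ± 0.10, and the VEGF receptor gene Flt1, the 1 marker counted as higher, rose by 0.56 ± 0.08 at the probe set shown. At its probe set of highest mean Flt1 did not pass (0.19, adjusted p = 0.205), nor did Aplnr. Among 31 angiogenic factors and receptors, Ramp2 also rose (0.35) and Nrp2 fell (-0.39), each lost under 12 alternatives, while Kdr (-0.31 ± 0.08), Nrp1 (-0.45 ± 0.11) and Dll4 (-0.43 ± 0.12) did not pass. Sox17, an arterial endothelial transcription factor, read 8.14, 8.20 and 8.52 in MP against 7.10, 7.21 and 7.17 in 7EX and 7.20, 7.37 and 7.41 in 21EX. Both its probe sets passed, the groups were widely apart, and the difference was 1.04 ± 0.09 (adjusted p = 1.9e-05). Tmem100, an endothelial membrane protein induced by BMP signals, was called at 0.87 ± 0.18, and Rgcc, a cell cycle regulator also found in endothelium, at 0.91 ± 0.13.

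Sox4, a transcription factor of the same family as Sox17, went the other way. It read 7.51, 7.78 and 7.22 in MP, 8.49, 8.38 and 8.37 in 7EX and 8.52, 8.14 and 8.49 in 21EX. All 8 of its probe sets were lower in MP, 4 passed, and the difference was -0.89 ± 0.11 (adjusted p = 0.000333) at the probe set shown and -1.06 at that of highest mean.

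In the extracellular matrix 4 of 38 genes rose (10.5%) and none fell, with 2 past the test without MP-1 and 2 without MP-3. Timp4, the metalloproteinase inhibitor typical of heart, read 8.94, 8.33 and 8.68 in MP against 7.31, 7.42 and 7.35 in 7EX and 7.63, 7.50 and 7.58 in 21EX, a difference of 1.18 ± 0.21 without overlap (adjusted p = 0.00681). Timp3 rose by 0.77 ± 0.12 and the protease Adamts1 by 0.73 ± 0.15. The small proteoglycan Dcn passed at a dim probe set (0.57 ± 0.07), whereas its probe set of highest mean gave -0.10. Col1a1 (0.28 ± 0.12), Col1a2 (0.29 ± 0.10) and Lum (-0.30 ± 0.08) did not pass. Of 12 fibroblast markers Tcf21, a transcription factor of cardiac fibroblasts, fell by 0.53 ± 0.08 and Dcn rose.

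**Figure D4:**
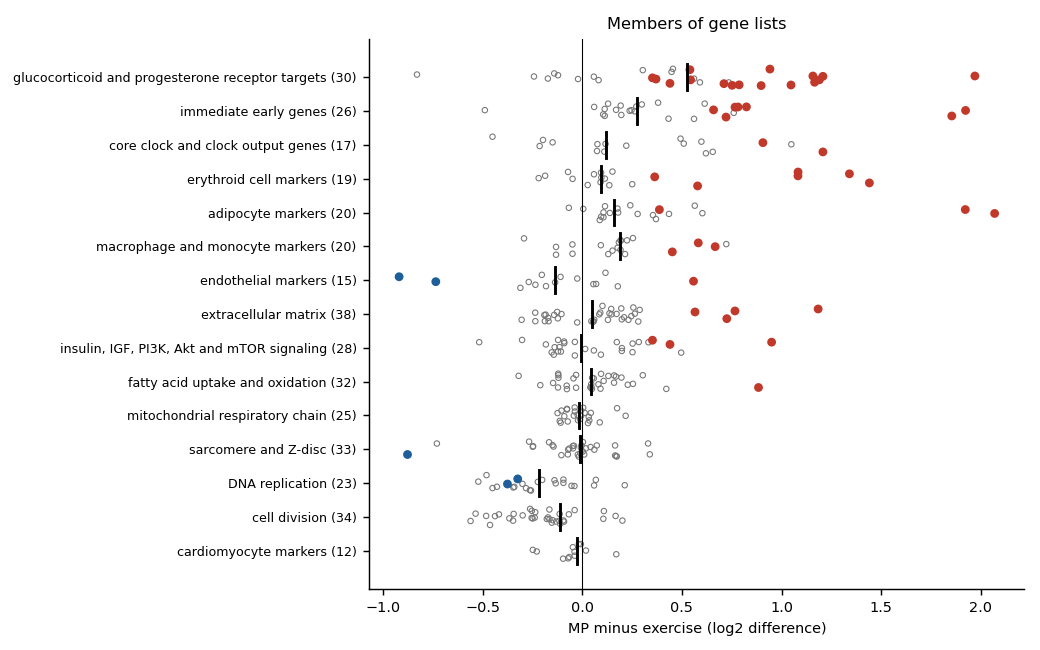
MP minus exercise on the log2 scale for each member of 15 lists (number of genes in brackets), at the probe set with the smallest p; filled red and blue points are genes that passed as higher or lower, open points genes that did not, and black bars are list medians at the probe set of highest mean. The receptor target and immediate early lists have the medians farthest above 0, at 0.53 and 0.28, and DNA replication the one farthest below, at -0.22.

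Among contractile genes 1 passed, Acta1, the skeletal muscle actin that the heart re-expresses under load. It read 11.45, 11.42 and 10.94 in MP, 12.32, 12.47 and 12.78 in 7EX and 11.71, 11.69 and 11.92 in 21EX. The 7EX arrays were the highest, the 21EX arrays lay between, and the MP arrays were the lowest of these 3 groups, where they overlapped NP/Sed (11.36, 10.76 and 11.21). The difference was -0.88 ± 0.19 (adjusted p = 0.0304), made of -1.26 against 7EX and -0.51 against 21EX. The call was lost under 9 alternatives, among them the removal of any 1 MP array and the fit with exercise as 1 group. The other 32 of 33 sarcomere genes did not pass, among them Myh6 (-0.25 ± 0.19), Myl4 (0.17 ± 0.10) and Ankrd1 (-0.73 ± 0.25). Among 13 hypertrophy markers the cardiac transcription factor Gata4 fell by 0.32 ± 0.07, which was also lost without any 1 MP array, and the natriuretic peptides Nppa (-0.72 ± 0.22) and Nppb (-0.30 ± 0.17) were lower without passing. Of 23 genes of calcium handling and ion channels, the gap junction gene Gja1 fell by 0.39 ± 0.06 and the potassium channel gene Kcna5 rose by 0.70 ± 0.15. Kcna5 did not pass without MP-1, without MP-3 or without 21EX-1.

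Single genes of growth and division were lower in MP. Cenpa, the histone variant that marks centromeres, read 5.50, 5.91 and 5.84 in MP, 6.54, 6.84 and 6.59 in 7EX and 6.91, 6.80 and 6.62 in 21EX. The groups did not overlap and the difference was -0.96 ± 0.15 (adjusted p = 0.00248), with 1 of 3 probe sets past the test. The oncogene Mycn read 6.17, 6.87 and 6.36 against 7.21, 7.22 and 7.91 in 7EX and 6.98, 7.33 and 7.04 in 21EX, a difference of -0.82 ± 0.19 in which 7EX-3 was the highest array, lost under 13 alternatives. In DNA replication 2 of 23 genes fell (8.7%, against 1.02% of all genes), the clamp Pcna (-0.32) and the primase Prim1 (-0.38). Neither passed without MP-1 or without MP-3. At the probe set of highest mean 21 of the 23 were below exercise, with a median of -0.22. Of all 18194 genes 8903 were above exercise at that probe set. The mean signal of this list was 5.76 to 5.98 in MP, 6.08 to 6.22 in 7EX and 6.01 to 6.11 in 21EX, so MP lay below both. None of 34 cell division genes passed (median -0.11), but 21 of the 34 were dim, with a mean signal under 5. The count of 0 therefore does not show that they were equal. Their mean signal was 4.84 to 4.99 in MP, 5.10 to 5.39 in 7EX and 4.78 to 4.97 in 21EX, so MP lay below 7EX and overlapped 21EX. Among 18 inhibitors of the cell cycle, Cdkn1a, Btg2 and Gadd45b rose (1.05, 0.78 and 0.57) and Gadd45a, a DNA damage response gene, fell (-0.67 ± 0.09). Cdkn1a, Btg2 and Gadd45b did not pass without MP-1 or without MP-3. Cdkn1a read 10.16, 9.35 and 10.25 in MP against 8.75, 9.19 and 8.88 in 7EX and 8.67, 8.87 and 8.88 in 21EX, with MP-2 close to the highest exercise array.

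Protein turnover and stress genes showed few differences. In the ubiquitin pathway the deubiquitinase Usp2, under clock control in many tissues, rose by 0.80 ± 0.12 and the ligase Hecw2 by 0.81 ± 0.13, 2 of 28 genes (7.14%). The proteasome had 1 of 34 past the test, the lid subunit Psmd7 (-0.38 ± 0.09), and a median of -0.04. Psmd7 no longer passed under 17 alternatives, among them the replicate block and the removal of any 1 MP array. The muscle ligase Fbxo32 stood at -0.14 ± 0.10. Among 15 heat shock chaperones Dnajb4 rose (0.39) and Hsph1 fell (-0.50), but neither passed without MP-1 or without MP-3. Of 36 interferon-stimulated genes 1 rose, Ifi27 (0.77 ± 0.13). At the probe set of highest mean 31 were above exercise (median 0.17), against 8903 of all 18194 genes. Ifi27 did not pass without MP-3. The mean signal of this list was 7.39 to 7.62 in MP and 7.06 to 7.23 in 5 exercise arrays, but 7.96 in 21EX-1, above every MP array. The antioxidant regulator Nfe2l2 rose by 0.31, which did not pass without MP-1 or without MP-3. The retinal dehydrogenase Aldh1a1 rose by 0.46, and the survival gene Bcl2l1 was called at 0.82 ± 0.11. None of 27 splicing factors passed, and 1 of 27 chromatin genes did, the remodeller Chd6 (8.20, 8.27 and 8.22 in MP against 7.12, 7.42 and 7.18 in 7EX and 7.40, 7.30 and 7.13 in 21EX; difference 0.97 ± 0.11).

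Several called genes belonged to no list. Rhobtb1 read 9.04, 9.46 and 9.19 in MP, 7.96, 7.97 and 8.24 in 7EX and 8.04, 8.34 and 8.21 in 21EX, a difference of 1.10 ± 0.10 (adjusted p = 1.9e-05). Its groups were far apart and both probe sets passed. The remaining called rises were Arrdc2 (1.06), Fry (1.04), Cd24a (1.01), Apol11b (0.99), Tnik (0.94), Mcf2l (0.93), Coq10b (0.90), Ell2 (0.86) and Shld1 (0.65 at the probe set shown). The remaining falls were Rsrp1 (-0.85 ± 0.11) and Vgll3 (-0.72 at the probe set shown), a cofactor of TEAD transcription factors whose 3 probe sets all passed. Probe sets disagreed for some of these. Tnik passed at 1 of 4 probe sets and was at -0.06 at that of highest mean, Rsrp1 was at -0.11 there, and Fry at 0.31. Of the 48 called genes 33 had more than 1 probe set, 31 of these had all on the same side, and 40 genes passed also at the probe set of highest mean.

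MP was higher than 7EX in 42 called genes (0.231%) and lower in 10 (0.055%), 52 in all (0.286%), and higher than 21EX in 30 (0.165%) and lower in 6 (0.033%), 36 in all (0.198%). Of the 41 genes higher in MP, at the probe set shown, 35 passed against 7EX, 33 against 21EX and 31 against both, and of the 7 lower 7, 5 and 5 did. Without the limit on size, MP was higher than 7EX in 0.649% of all genes and lower in 0.451% (1.1% in all), and higher than 21EX in 0.511% and lower in 0.588% (also 1.1%). Both contrasts share the MP arrays, so they are not independent. The 41 and 7 genes were chosen by the mean of both contrasts, so their counts against each running time are not a separate test. The direct contrast of 21EX with 7EX called 1 gene (0.0055%), Aspm, a spindle protein, at -0.82 ± 0.11, so no gene called between MP and exercise was shown to differ between the running times. Acta1, with -1.26 and -0.51, stood at -0.75 ± 0.22 for 21EX minus 7EX (adjusted p = 0.673).

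Set beside NP/Sed, whose arrays both differences share, the 48 genes were placed in several ways. Zbtb16 differed from NP/Sed by 1.10 in MP and by -0.87 in exercise, both past the test (adjusted p = 0.043 and 0.0369). Fam107a stood at 2.07 in MP and -0.43 in exercise, Nr4a1 at 1.59 and -0.33, Alas2 at 1.46 and 0.12, and Fkbp5 at 1.34 and 0.15, where the MP value passed and the exercise value did not. For Rhobtb1 (0.42 and -0.68), Ppargc1a (0.26 and -0.63), Shld1 (0.19 and -0.46), Acta1 (0.16 and 1.04) and Vgll3 (-0.19 and 0.53) the exercise value passed and the MP value did not. Sox4 stood at -0.56 and 0.34, of which the MP value passed. Per1 (0.75 and -0.46), Timp4 (0.63 and -0.55), Aplnr (-0.47 and 0.45) and Cenpa (-0.52 and 0.44) passed on neither side, and each lay above NP/Sed in one group and below it in the other. In all, 25 of the 41 genes higher in MP passed for MP against NP/Sed, 4 for exercise against NP/Sed and 1 for both, and of the 7 lower genes 2, 2 and 0 did. Over all genes, 1.17% passed as higher and 0.94% as lower in MP than in NP/Sed (2.11% in all), and 4.27% as higher and 2.96% as lower in exercise (7.15% in all). The 48 genes were chosen with these same MP and exercise arrays, so their counts cannot be measured against those shares.

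**Figure D5:**
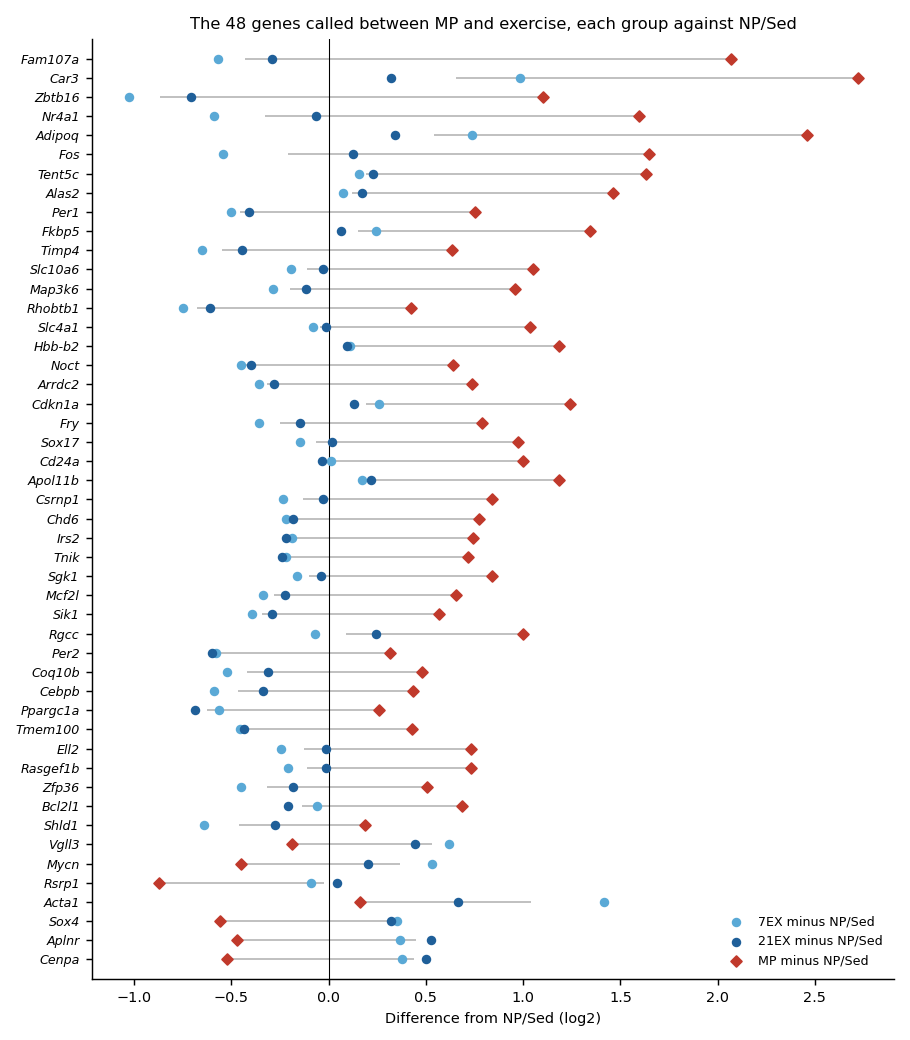
Log2 difference from NP/Sed of MP (red diamonds), 7EX (light blue) and 21EX (dark blue) for the 48 called genes, ordered by MP minus exercise; grey lines join MP to the mean of both running groups. MP lies to the right of NP/Sed in all 41 upper genes, and the running groups lie on either side of it. The genes were chosen by MP minus exercise in these same arrays.

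Of the genes that the study followed by quantitative PCR, Fkbp5, Car3, Adipoq and Acta1 were called here. Cks2 (-0.56 ± 0.19) and Cdc20 (-0.48 ± 0.19), both of cell division, were lower in MP without passing. Stat3 (0.08 ± 0.08), Myl1 (0.06 ± 0.10), Timp1 (-0.18 ± 0.28), Mmp3 (-0.03 ± 0.24), Ralgapa1 (0.19 ± 0.10), Birc6 (0.52 ± 0.25) and Xiap (0.21 ± 0.08) did not pass either, which does not show that they were equal.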

How the data were processed

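RNA of 18 left ventricle pools, 3 in each of 6 groups, was hybridized to Affymetrix whole-genome mouse arrays, 1 array per pool. Per the labels and methods, the authors summarized all arrays together by RMA with default options, which corrects background, quantile-normalizes and deposits 1 log2 value per probe set. RMA makes the signal distributions of the arrays alike (medians 4.93 to 5.02), so a shift of all genes would not show, and 18 arrays limit the precision. Of 45101 probe sets 64 controls were left out and 45037 were tested with limma 3.58.1 in R 4.3.3 (lmFit and eBayes, 6 groups, 12 residual and 6.45 prior degrees of freedom, two-sided, Benjamini-Hochberg over all probe sets). A total of 34945 probe sets had 1 gene in the platform annotation, 932 several and 9160 none; RefSeq held the gene IDs of 34741. A gene was shown by its probe set of smallest p, and of 44 lists 925 of 1004 entries had a probe set.

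Genes were named by a rule: the 15 largest called rises and falls without overlap, up to 4 members of each list by p, genes the study followed by quantitative PCR (the rule also listed Zbtb16 there, by mistake), and further members where a list is described; the remaining called genes were added. The comparison, the members and the lists were chosen with earlier results of these data known. Alternatives were fits of 9 arrays, an intensity trend, Cyber-T, a filter on dim probe sets, other scaling, other probe set rules, a replicate block and the removal of each array. The fit was tested on simulated data. Promoter windows came from RefSeq.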

Additional observations from a re-analysis of the deposited data

Results flagged for a closer look

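A test for single stray values (Dixon) among the 6 exercise arrays was run on 100 genes and marked 9, where chance marks about 1 in 20. Rsrp1 stood apart in 21EX-1 (log2 signal 9.18), Sik1 in 21EX-3 (5.99), Slc4a1 in 21EX-3 (3.31) and Zfp36 in 21EX-2 (7.95). Klf4 stood apart in 7EX-2 (9.26), Fry in 7EX-1 (5.65), Pcna in 7EX-3 (10.2), Mycn in 7EX-3 (7.91) and Fbxo32 in 7EX-2 (9.52).

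Aspm, which encodes a protein of the mitotic spindle, was the only gene that passed limma's test of 21EX minus 7EX (-0.82 ± 0.11, adjusted p = 0.0401). Its mean signal was 4.57 in 7EX, 3.75 in 21EX and 4.00 in MP, at 1 of 5 probe sets. That other genes did not pass does not show that their differences from MP were the same for both running times.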

How the results depend on the processing

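The counts of 41 genes called higher and 7 lower stayed within 1.5 times under the fits of the 9 arrays alone, the intensity trend, Cyber-T, the filter on dim probe sets, quantile scaling and median centring. Cyber-T passed 279 genes as higher and 424 as lower at adjusted p alone, and the dim filter 340 as lower. With the probe set of highest mean only, 3 genes were called lower. With the mean of a gene's probe sets, 25 were called higher and 2 lower, 31 against 7EX and 19 against 21EX. In the fit with the 3′ minus 5′ covariate, chosen after seeing the data, 6 genes were called higher and 0 lower, the same counts passed without the size limit (6 and 0), and 0 were called against 7EX and 12 against 21EX. Leaving out 1 array at a time, 21 (without MP-3) to 55 (without MP-2) genes were called higher, 5 to 10 lower, 30 to 67 against 7EX and 17 to 54 against 21EX, and 52 to 192 genes passed as higher and 31 to 245 as lower. List counts without each MP array were also added after seeing the data. Of the called genes 18 of 48 no longer passed without MP-3, 11 without MP-1 and 3 without MP-2.

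The sign turned at the probe set of highest mean for Dcn (-0.10), Tnik (-0.064), Xiap (-0.00059) and Stat3 (-0.025), and when 1 array was left out for Mmp3 (0.04 without 7EX-2, 0.004 without 21EX-1, 0.002 without 21EX-3 and 0.14 without MP-2, over a range from -0.13 to 0.14) and Myl1 (-0.074 without MP-1, over a range from -0.074 to 0.13). The cause was not tested.

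Replicate numbers were not used as pairs in the main fit, and 3 arrays per group cannot settle whether they pair the arrays. Same-number correlations of deviations ran from -0.27 to 0.18, and 2 of 3 MP arrays correlated best with an exercise array of their own number. With the replicate number as a block 41 genes were called higher and 8 lower, 153 and 152 passed at adjusted p, and 50 and 37 were called against 7EX and 21EX.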
